A study of Mus musculus with 14 samples.

Results

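Of the 10 genes of fatty acid uptake and beta-oxidation, none changed past the threshold in any of 6 comparisons among drug-treated and vehicle-treated LLC1 tumours, in each of which 0.0% of all tested genes passed. The member that stood furthest from vehicle was Fabp5, a fatty acid binding protein, whose value was lower in all 3 libraries of tumours given both drugs than in any vehicle library, an order that 3.27% of all tested genes shared. The genes were chosen by name: Cd36, Fabp4 and Fabp5 (uptake and binding), Cpt1a and Cpt2 (carnitine shuttle), Acadm, Acadl and Acadvl (acyl-CoA dehydrogenases) and Hadha and Hadhb (the mitochondrial trifunctional protein). All 10 were found among the 21152 genes of the expression table. Each lay above the lowest value of the table in every library, and all 10 were among the 13711 genes tested.

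LLC1 is the mouse Lewis lung carcinoma line, and RNA came from a cell fraction of its tumours that the extraction protocol calls enriched for tumour, while the sample titles call the material bulk tumour. The groups were vehicle (DMSO, 4 libraries), MYCi975 at 50 mg/kg (4 libraries), TMP195 at 50 mg/kg (3 libraries) and both compounds together (3 libraries), each over 16 days. MYCi975 is a small-molecule inhibitor of MYC, a transcription factor. TMP195 acts on histone deacetylases of class IIa, blocking their activity. No dose within the combination, and no strain, sex or age of the host mice, is stated in the labels. Nor do they state whether each library is a separate animal, so p-values here measure only the spread between libraries, which may be technical.

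Fatty acids enter cells with the help of the scavenger receptor CD36 and are carried in the cytosol by fatty acid binding proteins. After activation to acyl-CoA they are passed to carnitine by CPT1 at the outer mitochondrial membrane and back to coenzyme A by CPT2 at the inner membrane. Inside the matrix an acyl-CoA dehydrogenase opens each round of beta-oxidation, and for long chains the trifunctional protein carries out the remaining steps. In tumours, CD36, FABP4 and FABP5 are also known from macrophages, endothelial cells and adipocytes, so bulk RNA mixes several sources of them.

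Values are log2-scale expression after a variance-stabilising transformation (VST), with a floor of 4.047 shared by all libraries. They are not scaled by gene length, so levels are compared within a gene and not between genes. Between 880 and 2954 genes per library lay at the floor, and library medians ran from 5.78 to 5.88. Sequencing depth is unknown, because read counts could not be recovered. Of the carcinoma keratins, Krt8 lay between 7.86 and 8.65 and Krt18 between 7.84 and 8.88. Of the epithelial adhesion genes, Epcam lay between the floor and 5.303 and Cdh1 between 5.57 and 6.30. The leukocyte gene Ptprc (CD45) reached 9.65 to 12.07, so leukocyte RNA was present in every library. For a gene of another cell type, fewer of those cells and less RNA per cell cannot be told apart in such tissue.

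Promoter sequence is shown for genes that later results set side by side: the head-to-head pair Hadha and Hadhb, and the carnitine shuttle genes Cpt1a and Cpt2. Windows came from RefSeq (GRCm38.p6) and covered 250 bases before to 50 bases after each start; 8 of the 10 genes had one, and Fabp4 and Fabp5 had none. The first 250 bases are printed, 5′ to 3′ on the gene's strand, with capitals marking AGGTCA (a nuclear receptor half-site) and GGGCGG (a GC box) on either strand. Hadhb lies at chr5:30155003-30155252 on the plus strand, Cpt1a at chr19:3323051-3323300 on the plus strand and Cpt2 at chr4:107923590-107923839 on the minus strand.
Hadhb: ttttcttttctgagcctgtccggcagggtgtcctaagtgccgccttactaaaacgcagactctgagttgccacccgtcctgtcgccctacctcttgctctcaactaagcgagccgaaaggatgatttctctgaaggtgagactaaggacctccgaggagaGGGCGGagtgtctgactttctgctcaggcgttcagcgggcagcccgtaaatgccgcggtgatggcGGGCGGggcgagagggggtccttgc
Cpt1a: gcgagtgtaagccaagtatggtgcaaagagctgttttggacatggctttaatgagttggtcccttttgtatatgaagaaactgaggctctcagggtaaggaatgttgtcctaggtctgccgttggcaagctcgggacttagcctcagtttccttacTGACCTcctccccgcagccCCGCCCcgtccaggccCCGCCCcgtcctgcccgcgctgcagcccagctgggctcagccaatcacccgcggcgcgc
Cpt2: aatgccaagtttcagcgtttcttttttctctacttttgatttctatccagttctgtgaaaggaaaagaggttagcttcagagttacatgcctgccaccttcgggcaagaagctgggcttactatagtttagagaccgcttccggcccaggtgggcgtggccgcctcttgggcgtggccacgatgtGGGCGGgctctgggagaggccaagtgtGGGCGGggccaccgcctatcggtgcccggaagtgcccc
The starts of Hadha (30154980, minus strand) and Hadhb (30155253, plus strand) on chromosome 5 have 272 bases between them, so the printed Hadhb window lies wholly between both starts. The full windows of the pair overlap by 228 bases.

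Within the full windows, the E-box CACGTG, the motif that MYC binds, was found in 0 of 8 members, against 7.15% of all 32851 windows of this length. AGGTCA on either strand was found in 4 of 8 (Cd36, Cpt1a, Acadm and Acadvl), against 16.3% of all windows. A direct repeat of the half-site with 1 base between the copies was found in 0 of 8 and in 0.0396% of all windows, and TCAAGGTCA, an estrogen-related receptor motif that contains the half-site, in 0 of 8 and in 0.423%. GGGCGG was found in 6 of 8 (Cd36, Cpt1a, Cpt2, Acadl, Hadha and Hadhb), against 35.7%. These are letter matches in one window per gene and say nothing of binding.

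Fabp5 (ENSMUSG00000027533.11) binds long-chain fatty acids in the cytosol and is expressed by macrophages and many epithelial cells. Its value was 8.77, 8.90, 9.18 and 9.18 in vehicle replicates 1 to 4 and 9.002, 9.47, 8.15 and 8.72 with MYCi975. With TMP195 it was 9.19, 9.10 and 9.78, and with the combination 7.93, 8.41 and 8.37. All 3 combination libraries lay below all 4 vehicle and all 3 TMP195 libraries, while MYCi975 replicate 3 lay among the combination values. The vehicle group averaged 9.01 ± 0.21 (SD, n = 4), the MYCi975 group 8.84 ± 0.55 (n = 4), the TMP195 group 9.36 ± 0.37 (n = 3) and the combination group 8.24 ± 0.26 (n = 3). Lower groups that did not overlap were found for 3.27% of all tested genes against vehicle and for 6.36% against TMP195.

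Fabp5 differed between combination and vehicle by -0.77 (95% interval -1.31 to -0.23), a ratio of 0.586 on this scale. By limma the unadjusted p was 0.0081 and the adjusted p 0.99, so the difference was not past the threshold. Against TMP195 alone the difference was -1.12 (-1.69 to -0.54), the fourth smallest p of the 13711 genes in that comparison, with unadjusted p = 0.00087 and adjusted p = 0.998 by limma. Against MYCi975 alone it was -0.60 (-1.14 to -0.06), with a limma adjusted p of 0.61, and it was -0.45 without combination replicate 1 and -0.39 without MYCi975 replicate 2. The interaction, which is the difference of combination from TMP195 minus the difference of MYCi975 from vehicle, was -0.95 (-1.71 to -0.18; limma unadjusted p = 0.018, adjusted p = 0.91). For the single agents against vehicle, Fabp5 differed by -0.17 (-0.67 to 0.33) with MYCi975 and by 0.35 (-0.19 to 0.89) with TMP195, which was 0.14 without TMP195 replicate 3.

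The mean level of leukocyte markers was also lowest in the combination group. The summed level of 4 pan-leukocyte genes, in log2 units above the floor, was 20.30 to 23.04 with vehicle, 20.7 to 27.0 with MYCi975, 21.4 to 24.8 with TMP195 and 18.6 to 20.4 with the combination. All 4 of those genes were lower in combination than in vehicle on average (median -0.54), and none passed the threshold. The 8 macrophage genes summed to 31.2 to 36.9 with vehicle, 29.7 to 39.0 with MYCi975, 31.2 to 39.0 with TMP195 and 29.2 to 32.5 with the combination, and 6 of 8 were lower in combination than in vehicle (median -0.39). None of these 12 genes was at the floor in any library. Ptprc itself differed by -0.56 between combination and vehicle (-1.35 to 0.23). With Ptprc as a covariate, an alternative added after the data were seen, the Fabp5 difference from vehicle was -0.46 (limma unadjusted p = 0.015, adjusted p = 0.998), the difference from TMP195 was -0.68, the difference from MYCi975 was -0.16 and the interaction was -0.37. The Ptprc mean was 10.04 with the combination, 10.60 with vehicle and 10.84 with TMP195, so this covariate can also take out part of a treatment difference. The part of leukocyte RNA in the Fabp5 values was not tested. Near-identical copies of Fabp5 exist in the mouse genome, among them Fabp5l2, so its value as a single gene is uncertain.

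**Figure D1:**
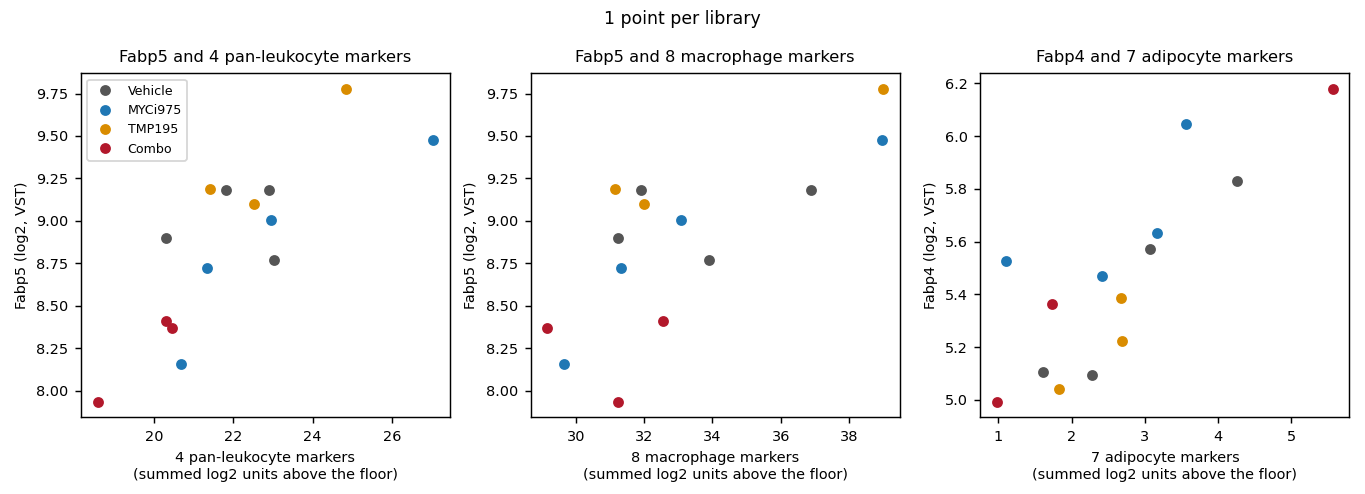
Fabp5 (y axis, log2 VST value) against the summed level of 4 pan-leukocyte markers (left) and 8 macrophage markers (middle), and Fabp4 against 7 adipocyte markers (right), with 1 point per library and colours for groups. The x axes are summed log2 units above the floor; the combination libraries lie at 18.6 to 20.4 on the pan-leukocyte axis, and the 3 highest Fabp4 values sit at the 3 highest adipocyte sums (3.57 to 5.56).

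The genes whose values followed Fabp5 most closely across the 14 libraries, after each was centred on its group means, were Ly6c2 (r = 0.98), a monocyte antigen, H2-Q7 (r = 0.96), a major histocompatibility gene, and Csf1r (r = 0.94), the receptor for the macrophage growth factor CSF1. These correlations are the highest of all tested genes by construction and share libraries and scaling, so they are a description only.

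Cd36 (ENSMUSG00000002944.16) takes up long-chain fatty acids and oxidised lipoproteins at the cell surface. It measured 6.87, 7.09, 7.39 and 7.26 with vehicle, 7.69, 7.40, 6.81 and 7.07 with MYCi975, 6.78, 7.52 and 7.94 with TMP195 and 7.31, 7.21 and 6.80 with the combination. The highest and the lowest library of all 14 were both TMP195 libraries, and all groups overlapped. Its differences from vehicle were 0.09 (-0.42 to 0.60) with MYCi975, 0.26 (-0.29 to 0.81) with TMP195 and -0.05 (-0.59 to 0.50) with the combination. The TMP195 value rested on single libraries: it was 0.58 without replicate 1 and -0.0052 without replicate 3. Summed endothelial markers (8 genes) overlapped between groups, at 14.6 to 18.1 with vehicle, 14.2 to 17.3 with MYCi975, 13.5 to 17.4 with TMP195 and 13.97 to 16.14 with the combination. TMP195 replicate 3, the library highest in Cd36, had the highest macrophage marker sum (38.99) and the lowest endothelial sum (13.5) of all libraries. MYCi975 replicate 2, nearly as high in macrophage sum (38.97), had a Cd36 value of 7.40. The part of macrophage or endothelial RNA in the Cd36 values was not tested. The genes nearest to Cd36 within groups were Sharpin (r = 0.89), Pld3 (0.88) and Serf2 (0.88).

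Fabp4 (ENSMUSG00000062515.4) is the fatty acid binding protein of adipocytes, and endothelial cells and macrophages express it too. It measured 5.10, 5.83, 5.11 and 5.57 with vehicle, 5.63, 5.53, 5.47 and 6.05 with MYCi975, 5.04, 5.22 and 5.39 with TMP195 and 4.99, 6.18 and 5.37 with the combination. The combination group held both the highest and the lowest library of all 14, and each treated group overlapped with vehicle. Differences from vehicle were 0.27 (-0.24 to 0.78) with MYCi975, -0.18 (-0.73 to 0.37) with TMP195 and 0.11 (-0.44 to 0.66) with the combination. Without combination replicate 2 that last value was -0.22, and the MYCi975 value was 0.14 without MYCi975 replicate 4 and 0.41 without vehicle replicate 2. The 3 libraries highest in Fabp4, combination replicate 2, MYCi975 replicate 4 and vehicle replicate 2, were also the 3 with the highest summed adipocyte markers, at 5.56, 3.57 and 4.26 log2 units above the floor over 7 genes. The other 11 libraries summed to 0.985 to 3.16. None of those 7 genes had a mean high enough to be tested, and Cidec was at the floor in all 3 TMP195 libraries. The part of adipocyte RNA in the Fabp4 values was not tested. The genes nearest to Fabp4 within groups were Tpr (r = 0.95), Rplp2 (0.92) and Arpc5l (0.92).

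Cd36 and Fabp5 correlated over the 14 libraries with Pearson r = 0.55 (permutation p = 0.041, adjusted p = 0.32 over 8 pairs of members) and Spearman rho = 0.45 (permutation p = 0.11, adjusted p = 0.68). Centring on group means gave r = 0.58, and leaving out the 2 libraries most distant from the Cd36 median gave 0.35. Cd36 and Fabp4 had r = 0.05 and rho = 0.12, and Fabp4 and Fabp5 r = -0.06 and rho = -0.03 (adjusted permutation p for r = 0.86 in both).

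Cpt1a (ENSMUSG00000024900.6) is the liver-type carnitine palmitoyltransferase of the outer mitochondrial membrane and the main point of control of long-chain oxidation. It measured 8.82, 8.65, 8.78 and 8.44 with vehicle, 9.16, 8.88, 9.04 and 8.27 with MYCi975, 8.96, 9.09 and 8.81 with TMP195 and 8.97, 8.81 and 8.84 with the combination. Replicate 4 was the lowest library of both the vehicle and the MYCi975 group, and only 1 vehicle library (8.82) lay above the lowest TMP195 and combination values. Differences from vehicle were 0.16 (-0.19 to 0.51) with MYCi975, 0.28 (-0.10 to 0.66) with TMP195 and 0.20 (-0.18 to 0.58) with the combination. The MYCi975 value was 0.054 without MYCi975 replicate 1 and 0.35 without replicate 4, and the combination value was 0.12 without vehicle replicate 4.

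Cpt2 (ENSMUSG00000028607.17), the inner-membrane partner of Cpt1a, measured 6.87, 6.98, 6.74 and 7.08 with vehicle and 7.15, 6.17, 6.65 and 6.60 with MYCi975. With TMP195 it was 6.14, 6.08 and 6.75, and with the combination 6.31, 6.38 and 6.99. Of the TMP195 libraries 2 lay below all vehicle libraries, and the other lay among them. The mean ± SD was 6.92 ± 0.15 with vehicle (n = 4) and 6.32 ± 0.37 with TMP195 (n = 3). The difference between TMP195 and vehicle was -0.60 (-1.095 to -0.098), a ratio of 0.661, with a limma unadjusted p of 0.022 and an adjusted p of 0.9996. Without vehicle replicate 4, TMP195 replicate 1 or TMP195 replicate 2 the unadjusted limma p was 0.052, 0.082 or 0.096. Differences from vehicle were -0.27 (-0.74 to 0.19) with MYCi975 and -0.36 (-0.86 to 0.14) with the combination. The MYCi975 value was -0.12 without MYCi975 replicate 2 and -0.44 without replicate 1, and the combination value -0.24 without combination replicate 1 and -0.57 without replicate 3. Markers of skeletal muscle, a tissue rich in this pathway, varied widely: the sum of 8 muscle markers was 2.95 to 24.3 with vehicle, 7.94 to 22.6 with MYCi975, 3.390 to 8.005 with TMP195 and 2.75 to 12.3 with the combination. With vehicle, TMP195 and the combination, the library with the lowest muscle sum had the highest Cpt2 value of its group (7.08, 6.75 and 6.99). With MYCi975 it did not (6.65), and the library with the highest sum had the lowest Cpt2 value (6.17). Outside the MYCi975 group, the lowest muscle sums were in vehicle replicate 4, TMP195 replicate 3 and combination replicate 3. The same libraries also had the lowest endothelial marker sums of their groups (14.6, 13.5 and 13.97). The part of muscle or endothelial RNA in the Cpt2 values was not tested.

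Cpt1a had a higher mean, and Cpt2 a lower one, in all 3 treated groups than in vehicle, and the 3 comparisons share the vehicle libraries. Over the 14 libraries Cpt1a and Cpt2 correlated with r = -0.28 (permutation p = 0.33, adjusted p = 0.86) and rho = -0.29 (permutation p = 0.31, adjusted p = 0.68). Centring on group means gave r = -0.03, and leaving out the 2 libraries most distant from the Cpt1a median gave -0.23. The gene nearest to Cpt2 within groups was Ech1 (r = 0.86), which encodes a dienoyl-CoA isomerase of fatty acid oxidation. Next came Ugdh (r = 0.83) and Usp7 (r = 0.80). For Cpt1a the nearest gene was Mrc2 (r = 0.93), a collagen receptor. These correlations, like those of the nearest genes of the other members, are the highest by construction and a description only.

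**Figure D2:**
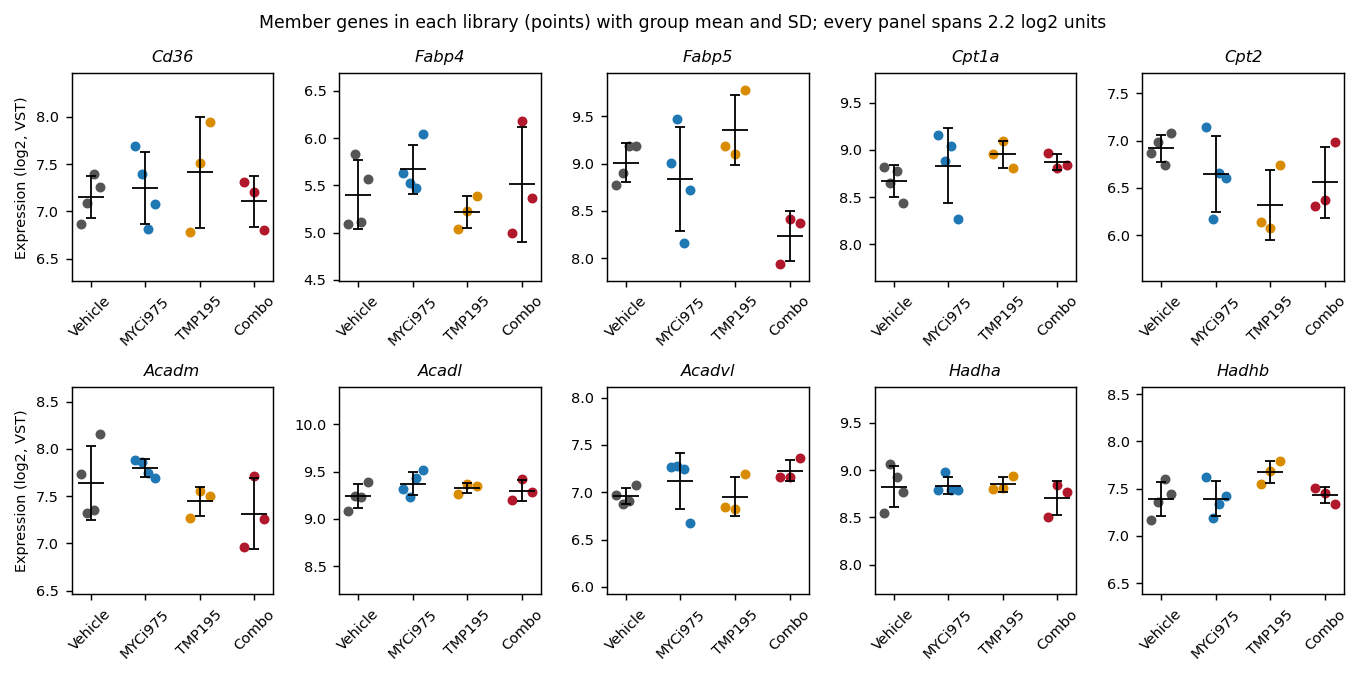
Expression of the 10 genes (y axis, log2 VST value, each panel spanning 2.2 log2 units) in each library by group (x axis). Points are libraries and bars are the group mean with SD; the 3 combination values of Fabp5 (7.93 to 8.41) lie below the vehicle values, and the 4 groups of Cd36 all overlap.

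The 3 acyl-CoA dehydrogenases differ in the chain length they prefer: very long for Acadvl, long for Acadl and medium for Acadm. Acadl (ENSMUSG00000026003.6) measured 9.09, 9.25, 9.23 and 9.39 with vehicle, 9.31, 9.23, 9.44 and 9.51 with MYCi975, 9.26, 9.37 and 9.35 with TMP195 and 9.20, 9.42 and 9.28 with the combination. It was the steadiest of the 10 genes. Its within-group SD was 0.11, and 2.22% of tested genes had a smaller one (median over tested genes 0.24). Its differences from vehicle were 0.13 (-0.09 to 0.36) with MYCi975, 0.09 (-0.16 to 0.33) with TMP195 and 0.06 (-0.18 to 0.30) with the combination.

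Acadm (ENSMUSG00000062908.13) measured 7.73, 7.32, 7.35 and 8.15 with vehicle, 7.88, 7.86, 7.74 and 7.69 with MYCi975, 7.27, 7.55 and 7.50 with TMP195 and 6.96, 7.71 and 7.26 with the combination. Of the 10 treated libraries, 7 lay within the range of the vehicle group. Differences from vehicle were 0.15 (-0.25 to 0.56) for MYCi975, -0.20 (-0.63 to 0.24) for TMP195 and -0.33 (-0.76 to 0.11) for the combination. Without vehicle replicate 4 these were 0.33, -0.025 and -0.16, and the combination value was -0.15 without combination replicate 1 and -0.53 without replicate 2. The combination differed from MYCi975 by -0.48 (-0.92 to -0.05; limma unadjusted p = 0.032, adjusted p = 0.61). That p was 0.18 without combination replicate 1, where the difference was -0.31 (limma, unadjusted).

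Acadvl (ENSMUSG00000018574.15) measured 6.98, 6.88, 6.91 and 7.08 with vehicle, 7.27, 7.28, 7.24 and 6.67 with MYCi975, 6.84, 6.82 and 7.19 with TMP195 and 7.16, 7.17 and 7.36 with the combination. All 3 combination libraries lay above all 4 vehicle libraries, as was the case for 2.8% of all tested genes. In the MYCi975 group 3 libraries lay above all vehicle libraries and replicate 4 below them. The differences from vehicle were 0.27 (-0.08 to 0.62) with the combination, 0.16 (-0.17 to 0.48) with MYCi975 and -0.0079 (-0.36 to 0.34) with TMP195. The MYCi975 value was 0.30 without replicate 4 (limma unadjusted p = 0.039) and 0.10 without replicate 2. In the mouse annotation Acadvl overlaps Dvl2, and whether the authors' quantification used strand is not given, so reads of the pair may not be separable.

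Acadm and Acadl correlated with r = 0.37 over the 14 libraries (permutation p = 0.20, adjusted p = 0.78) and rho = 0.34 (permutation p = 0.23, adjusted p = 0.68), and leaving out 2 libraries gave r = 0.19. Acadm and Acadvl had r = 0.13 and rho = 0.23, and Acadl and Acadvl r = -0.12 and rho = -0.10 (adjusted permutation p for r = 0.86 in both). The genes nearest within groups were Fam162a (r = 0.93) for Acadl, Ociad2 (r = 0.91) for Acadvl and Grid1 (r = 0.87) for Acadm.

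Hadha encodes the alpha subunit of the trifunctional protein, with the hydratase and the long-chain dehydrogenase activity, and Hadhb the beta subunit, the thiolase. Hadha (ENSMUSG00000025745.13) measured 8.55, 9.06, 8.92 and 8.77 with vehicle, 8.79, 8.98, 8.79 and 8.79 with MYCi975, 8.80, 8.81 and 8.94 with TMP195 and 8.50, 8.84 and 8.77 with the combination. Differences from vehicle were 0.01 (-0.25 to 0.28) with MYCi975, 0.02 (-0.26 to 0.31) with TMP195 and -0.12 (-0.41 to 0.17) with the combination. The sign of the MYCi975 value was negative after quantile normalisation. In the mouse annotation the end of Hadha overlaps the end of Garem2, so reads there may not be separable either.

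Hadhb (ENSMUSG00000059447.14) measured 7.17, 7.36, 7.60 and 7.44 with vehicle, 7.62, 7.19, 7.34 and 7.43 with MYCi975, 7.55, 7.68 and 7.79 with TMP195 and 7.50, 7.45 and 7.33 with the combination. All 3 TMP195 libraries lay above 3 of the 4 vehicle libraries and above all 3 combination libraries, the latter an order that 6.36% of all tested genes shared. The difference between TMP195 and vehicle was 0.28 (-0.02 to 0.59; limma unadjusted p = 0.064, adjusted p = 0.9996), and between combination and TMP195 -0.24 (-0.57 to 0.08). Against vehicle it was 0.0027 (-0.28 to 0.28) with MYCi975, with a sign that turned under median centring and quantile normalisation, and 0.04 (-0.26 to 0.34) with the combination.

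Hadha and Hadhb encode subunits of 1 complex, and their starts lie on either side of the stretch printed above. Their values correlated with r = 0.16 over the 14 libraries (permutation p = 0.60, adjusted p = 0.86) and rho = 0.26 (permutation p = 0.38, adjusted p = 0.68). Leaving out the 2 libraries most distant from the Hadha median gave r = 0.41, and centring on group means gave 0.13. Both genes varied little, with a within-group SD of 0.16 each, and 12.7% and 12.3% of tested genes had a smaller one. The nearest genes within groups were Chodl (r = 0.91) for Hadha and Afg1l (r = 0.88) for Hadhb.

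The uptake genes varied more within groups than the oxidation enzymes. The within-group SD was 0.38 for Fabp5, 0.38 for Cd36 and 0.37 for Fabp4, larger than in 84.8%, 84.5% and 83.8% of tested genes. It was 0.33 for Cpt2, 0.28 for Acadm, 0.25 for Cpt1a and 0.20 for Acadvl. The range of a gene over all 14 libraries ran from 0.43 for Acadl to 1.84 for Fabp5.

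Counted by comparison, 0 of 10 members passed an adjusted p of 0.05 in each of the 6, where 0.0% of all tested genes passed. By limma at an unadjusted p under 0.05, against vehicle, 0 members were found with MYCi975 (3.33% of all tested genes), 1 with TMP195 (Cpt2, 2.78%) and 1 with the combination (Fabp5, 3.43%). The combination against MYCi975 had 2 (Acadm and Fabp5, 8.17%), the combination against TMP195 1 (Fabp5, 4.4%) and the interaction 1 (Fabp5, 4.78%). Groups that did not overlap were found for no member with MYCi975 or TMP195 against vehicle (1.74% and 4.27% of all tested genes) nor for the combination against MYCi975 (7.5%). They were found for Acadvl and Fabp5 with the combination against vehicle (6.08%) and for Fabp5 and Hadhb with the combination against TMP195 (11.8%).

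Against vehicle, 8 of 10 members had a higher mean with MYCi975 (member median 0.11, median of all tested genes 0.0073), 6 of 10 with TMP195 (0.06 and 0.0036) and 5 of 10 with the combination (-0.0032 and -0.0022). Against the single agents, 3 of 10 were higher with the combination, both against MYCi975 (median -0.11) and against TMP195 (-0.10), and 3 of 10 had a positive interaction (-0.20). With single libraries left out the count ran from 5 to 9 with MYCi975 (5 without vehicle replicate 1, and 6 after quantile normalisation), 4 to 7 with TMP195, 4 to 6 with the combination, 1 to 5 for the combination against MYCi975, 2 to 5 against TMP195 and 2 to 3 for the interaction. Among all tested genes 49.7% to 51.7% had a positive difference in these 6 comparisons.

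**Figure D3:**
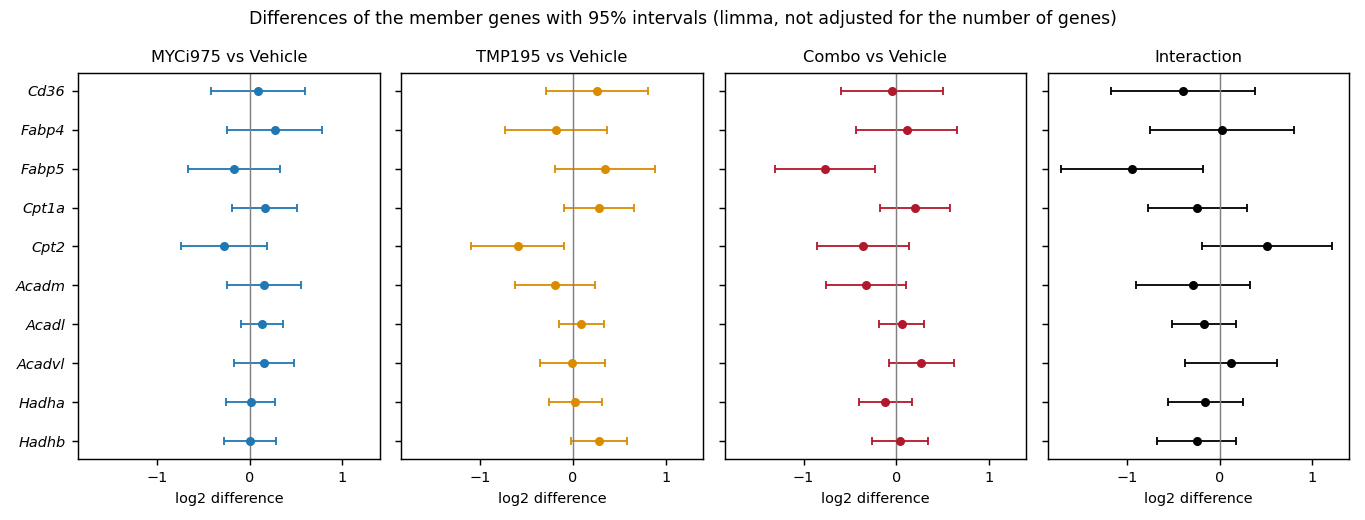
Log2 differences of the 10 genes (x axis) for the 3 treatments against vehicle and the interaction, with 95% intervals from limma that are not adjusted for the number of genes. Fabp5 lies at -0.77 in the combination against vehicle and Cpt2 at -0.60 with TMP195, and only these 2 and Fabp5 in the interaction (-0.95) have intervals that leave out 0.

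The rest of the pathway was read from 7 lists with 77 genes, of which 73 were in the table and 64 tested. None of the 64 passed the threshold in any of the 6 comparisons. Against vehicle 31 had a higher and 33 a lower mean with MYCi975, 41 and 23 with TMP195, and 24 and 40 with the combination. At an unadjusted limma p under 0.05 there was 1 gene with MYCi975, 1 with TMP195 and 2 with both compounds, out of 64, where the shares of all tested genes were those given above. There were 7 for the combination against MYCi975 (5 lower), 2 against TMP195 (both lower) and 6 for the interaction (5 negative).

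Of 10 tested genes of other uptake and activation steps, 4 had a higher mean in MYCi975-treated tumours than in vehicle, 5 in TMP195-treated ones and 1 after both compounds (median -0.05), where 49.7% of all tested genes were higher. Acsl3, an acyl-CoA synthetase, differed by -0.36 (-0.89 to 0.16) with MYCi975 and by -0.11 without replicate 2, and Acbd3, an acyl-CoA binding domain protein, by 0.22 (-0.03 to 0.46). The Acbd3 libraries ran from 9.2769 to 9.57 with MYCi975 and from 9.15 to 9.2766 with vehicle. They narrowly did not overlap (1.74% of all tested genes in either direction). Of the 5 other carnitine genes, Slc22a5, the carnitine transporter of the plasma membrane, differed by 0.40 (-0.11 to 0.90) with the combination (0.20 without combination replicate 1, 0.25 without vehicle replicate 4). Cpt1c, a neuronal family member, differed by 0.28 (-0.11 to 0.66), and by 0.17 without combination replicate 3 and 0.42 without replicate 2.

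The other 14 mitochondrial beta-oxidation genes divided as 6 higher and 8 lower with MYCi975, 7 and 7 with TMP195, and 5 and 9 with the combination. Acad9, an acyl-CoA dehydrogenase that also serves complex I assembly, differed from vehicle by 0.33 with MYCi975, 0.42 with TMP195 and 0.44 in tumours given both, and every interval held 0. The MYCi975 value was 0.21 without vehicle replicate 2 and 0.49 without replicate 4, and the combination value 0.25 without combination replicate 3. Eci1, an enoyl-CoA isomerase, differed by -0.32 (-0.71 to 0.07) with MYCi975 and by -0.14 without replicate 2.

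Of 9 tested peroxisomal genes, 5 had a higher mean in MYCi975-treated tumours than in vehicle, 7 in TMP195-treated ones and 4 after both compounds. Abcd3, a transporter of long and branched acyl chains, lay at 7.71 to 7.77 with the combination and at 7.31 to 7.57 with vehicle, without overlap (2.8% of all tested genes), a difference of 0.29 (0.03 to 0.55; limma unadjusted p = 0.031, adjusted p = 0.99). Abcd2 differed by 0.55 (0.03 to 1.07; limma unadjusted p = 0.040, adjusted p = 0.9996) with TMP195, where the libraries ran from 6.09 to 7.35, and by 0.15 without TMP195 replicate 1. With MYCi975 it differed by 0.43. Its MYCi975 libraries (6.13 to 6.76) did not overlap with vehicle (5.89 to 6.11), as for 1.74% of all tested genes in either direction.

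Among 8 tested regulators and targets of the PPAR receptors, which switch on oxidation genes when bound by fatty acids, 5 had a higher mean with MYCi975, 6 with TMP195 and 3 with both compounds. Plin2, a lipid droplet coat protein, differed by 0.41 (-0.10 to 0.92) with MYCi975 and by -0.19 (-0.74 to 0.36) with the combination. The MYCi975 value of Plin2 ran from 0.20 (without replicate 2) to 0.63 (without replicate 3), and the combination value from -0.30 (without combination replicate 3) to -0.12 (without replicate 1). Angptl4, a secreted lipase inhibitor, differed by 0.44 (-0.21 to 1.09) and 0.39 (-0.32 to 1.09), which without vehicle replicate 1 were 0.28 and 0.22, and the former was 0.16 without MYCi975 replicate 1. Ppargc1a, a coactivator of mitochondrial genes, lay between the floor and 4.85, and Pparg between 4.68 and 5.13; both were too low to be tested. Ppara was not analysed here.

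Of 9 tested fatty acid synthesis genes, 2 had a higher mean with MYCi975 than with vehicle, and 5 did with TMP195, as did 5 after both compounds. Srebf1, the transcription factor that drives that pathway, differed by 0.44 (0.02 to 0.87; limma unadjusted p = 0.041, adjusted p = 0.99) with the combination and by 0.26 without vehicle replicate 2. It lay at 7.77 to 8.02 with the combination and at 6.94 to 7.75 with vehicle, without overlap (2.8% of all tested genes in that direction). Acss2, which activates acetate, differed by -0.32 (-0.65 to 0.02) with MYCi975. Of 9 lipid droplet and lipolysis genes, 7 had a higher mean with MYCi975 (median 0.25), 7 with TMP195 (median 0.12) and 3 with the combination (median -0.04). Dgat1, which makes triglyceride, differed by 0.65 (0.04 to 1.26; limma unadjusted p = 0.039, adjusted p = 0.999) with MYCi975. G0s2, an inhibitor of lipolysis that neutrophils also express, differed by 0.64 (-0.0025 to 1.29) with MYCi975 and -0.55 (-1.25 to 0.14) with the combination. It lay at 6.98 to 7.43 with the combination and at 7.45 to 7.89 with vehicle, without overlap (3.27% of all tested genes in that direction). Without MYCi975 replicate 2, the library with the highest neutrophil marker sum (39.8), the MYCi975 values were 0.33 for Dgat1 and 0.27 for G0s2. That library also had the highest pan-leukocyte sum (27.0) and the highest T and NK cell marker sum (15.6) of all libraries. All 7 tested neutrophil markers were higher on average with MYCi975 than with vehicle (median 0.57, summed levels 27.3 to 39.8 against 25.5 to 29.6). They were also all higher with TMP195 (median 0.39), where Dgat1 differed from vehicle by -0.03 and G0s2 by -0.13. The part of neutrophil or other leukocyte RNA in the Dgat1 and G0s2 values was not tested.

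**Figure D4:**
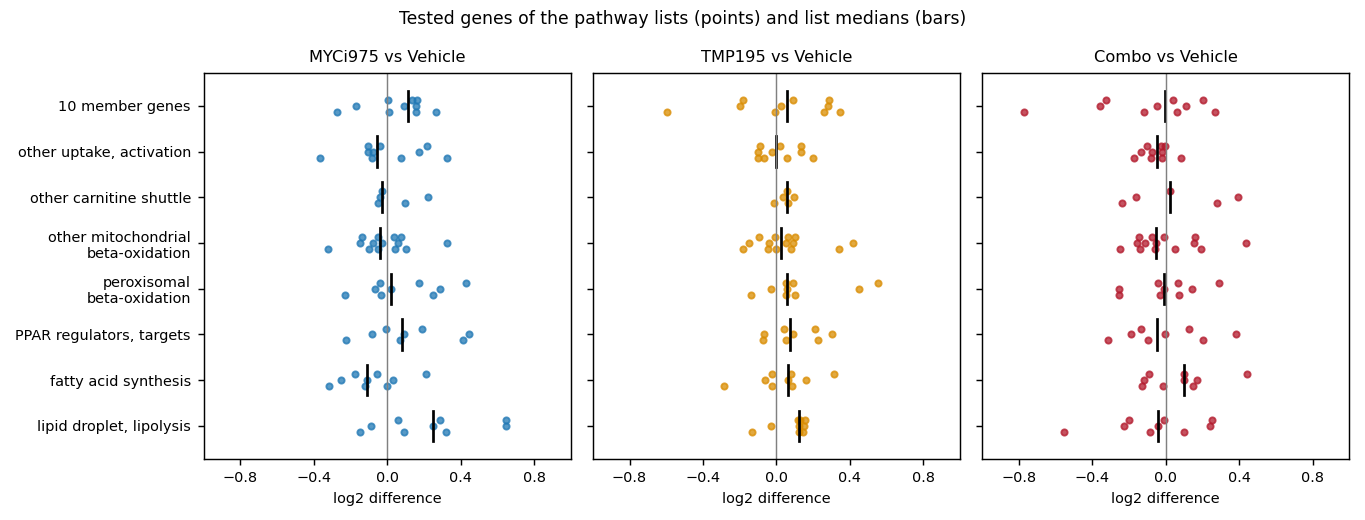
Log2 differences (x axis) of the tested genes of each pathway list (rows) in the comparisons with vehicle. Points are genes and bars are list medians, which lie between -0.11 and 0.25.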

How the data were processed

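RNA sequencing of 14 tumour libraries was used as 1 table of 21152 mouse Ensembl genes. The authors deposited log2-scale values after a variance-stabilising transformation, per the file headers. The submitters' processing notes name Salmon and hg38, a human build, although the identifiers are mouse, so the build is unsettled. Symbols matched 20264 identifiers (95.8%). Genes with a mean over 1 log2 unit above the floor were tested (13711). limma 3.58.1 (R 4.3.3), checked on simulated data, fitted 1 mean per group to all libraries with an intensity trend (10 residual degrees of freedom). Two-sided tests were used in 6 comparisons, each with Benjamini-Hochberg adjustment over all tested genes and a threshold of 0.05. Pairs of members were tested with 100000 permutations (scipy 1.17.1). Named besides the members were up to 2 tested genes of each pathway list with the smallest p against vehicle, Ppargc1a and Pparg (Ppara, also in the rule, was not analysed here), up to 2 of each of 9 marker lists with the highest mean, Ptprc and the genes most correlated with each member. Epcam, Cdh1 and Cidec were added after their values were seen. Members and lists were chosen with earlier results of these data known. Alternatives were other filters, moderation, normalisation and weights, only the groups compared, a replicate block, each library left out and Ptprc as a covariate and, for the other named genes, each library left out (both added later).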

Additional observations from a re-analysis of the deposited data

Results flagged for a closer look

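In 20 groups of 4 libraries (10 genes, vehicle and MYCi975) the gap of the highest and lowest library to its neighbour was set against the group's range and compared with Dixon's 95% critical value, which chance passes in about 1 in 20 groups. Acadvl in MYCi975 had its lowest library, replicate 4, at 6.67, a ratio of 0.937. Hadha in MYCi975 had its highest library, replicate 2, at 8.98, a ratio of 0.960. Groups of 3 libraries were not tested in this way.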

How the results depend on the processing

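No member passed an adjusted p of 0.05 by limma in any of 24 alternatives (14 that left out a library and 10 others). Single values were followed for 44 differences, which covered every member against vehicle and in the interaction. For the combination against single agents they covered only Fabp5 and Hadhb (TMP195) and Fabp5 and Acadm (MYCi975). Those members had an unadjusted limma p under 0.05 or no overlap there, and the others were not followed. Among the 44 the lowest adjusted limma p was 0.29, and 32 kept their sign throughout and 12 did not. Signs turned for Hadhb with MYCi975 under median centring (-0.0067) and quantile normalisation (-0.0051), for Hadha with MYCi975 under quantile normalisation (-0.036) and Ptprc as a covariate (-0.0091), and for Cd36 with the combination under library weights (0.016) and Ptprc as a covariate (0.12); the cause was not tested. The correlation of Fabp4 and Fabp5 was 0.25 when centred on groups and 0.21 without 2 libraries, and that of Acadl and Acadvl 0.14 without 2 libraries.

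Leaving out each library gave, against vehicle, -0.38 to 0.056 for Fabp5, -0.059 to 0.23 for Cd36, -0.082 to 0.090 for Hadha and -0.074 to 0.073 for Hadhb with MYCi975. With TMP195 it gave -0.0052 to 0.58 for Cd36, -0.13 to 0.057 for Acadvl and -0.069 to 0.10 for Hadha, and with the combination -0.15 to 0.11 for Cd36, -0.22 to 0.37 for Fabp4 and -0.036 to 0.11 for Hadhb. In the interaction it gave -0.027 to 0.24 for Acadvl and -0.31 to 0.29 for Fabp4. Fabp5 kept a negative sign in the combination against vehicle (-0.86 to -0.62) and in the interaction (-1.17 to -0.73), and Cpt2 with TMP195 (-0.81 to -0.48). The member median ran from 0.039 to 0.11 with MYCi975, -0.013 to 0.096 with TMP195 and -0.14 to 0.079 with the combination against vehicle, from -0.16 to -0.016 for the combination against MYCi975, -0.15 to -0.011 against TMP195 and -0.24 to -0.11 for the interaction.

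Members at an unadjusted limma p under 0.05, by library left out, numbered 0 to 2 with MYCi975, 0 to 2 with TMP195 and 1 to 2 with the combination against vehicle, 0 to 2 for the combination against MYCi975, 1 to 2 against TMP195 and 0 to 2 for the interaction. With Ptprc as a covariate they numbered 2 for the combination against vehicle, 0 against MYCi975, 2 against TMP195 and 0 for the interaction. With only the groups compared there was 1 for the combination against MYCi975. Of 19 same-numbered pairs of libraries, 6 correlated over 0.1, with a median r of 0.036 against -0.0036 for pairs with other numbers. Such correlations cannot decide whether replicate numbers pair the libraries. With the replicate block the combination against MYCi975 had 0 members at an unadjusted limma p under 0.05. In that fit Fabp5 differed by -0.76 (combination against vehicle) and Cpt2 by -0.58 (TMP195), and 0 members were called. Depth is unknown, so its part in low genes such as Fabp4 cannot be given.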

Other observations

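Other cell types were read from marker lists. The 6 tested T and NK cell genes were all lower on average with the combination than with vehicle (median -0.41; summed levels 8.21 to 11.3 against 9.83 to 13.8 over 8 genes), and so were all 7 tested neutrophil genes (median -0.29). Of 8 fibroblast genes, 7 were higher on average with the combination (median 0.32; summed levels 44.6 to 48.7 against 40.3 to 46.3). The 6 carcinoma genes summed to 12.96 to 14.46 with the combination and 11.88 to 14.02 with vehicle. Of the 4 tested, 2 were higher and 2 lower on average with the combination. Among them Krt18 lay at 8.690 to 8.885 with the combination and at 8.042 to 8.686 with vehicle, without overlap (2.8% of all tested genes in that direction). None of these genes passed the threshold, and the groups' sums overlapped.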
